A study of Mus musculus with 10 samples.

Results

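The genes of the constitutive proteasome were followed in the livers of mice on a high fat diet, with and without ethanol in the drinking water. They were taken by name: every gene called Psm, then a letter from a to g and a number, without Psmb8, Psmb9 and Psmb10, the catalytic subunits of the immunoproteasome. This gave 44 genes on 68 probes, of 22911 named genes and 56605 probes on the array. The scanner files hold no gene name, so the symbol is the one RefSeq gives to each probe's accession; 32994 probes had 1 symbol and 23611 had none and stay unnamed. The name rule is wider than the label "constitutive subunits". It also takes in the testis subunit Psma8, the thymus subunit Psmb11, the activators Psme1, Psme3 and Psme4, the inhibitor Psmf1 and the assembly chaperones Psmd5, Psmd9, Psmd10 and Psmg1 to Psmg4. No probe was named for Psme2 here, and Psmc3ip and Psme3ip1 do not match the rule.

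All mice were male C57BL/6J, 7 weeks old when bought and given 1 week to settle, and ate a 60% high fat diet for 4 months. The ethanol group (HFD ethanol, n = 5) drank ethanol in its water for the last 3 of these months, at 5 g/kg/d in the first week and 10 g/kg/d after it, and the control group (HFD control, n = 5) ate the same diet without it. No group on a normal diet was analysed here, so every difference below is one between mice on the fat diet. The mice were picked at random from 10 per arm, and each array held the liver RNA of 1 mouse. Precision is limited by the 5 arrays per group.

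The proteasome is the protease that takes apart proteins tagged with ubiquitin in the cytosol and nucleus. Its core particle is a barrel of stacked rings: the outer alpha rings gate the entrance, and the inner beta rings carry the active sites. The regulatory particle caps the barrel, with a base of ATPases that unfold the substrate and a lid that removes the ubiquitin chain. When proteasome activity is blocked, the transcription factor NRF1 (Nfe2l1) is known to raise many subunit genes together, through antioxidant response elements in their promoters.

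The letters of that element were looked for because a gene set transcribed together often shares its promoter sites. The core TGACNNNGC was searched on both strands from 250 bases before to 50 after the start of each gene in RefSeq's table (GRCm38.p6). It was in 6 of 38 promoters of 36 matched proteasome genes, or 15.8%, against 12.4% of 32851 promoters of all genes. The 6 belong to Psmb5, Psmb6, Psmc6, Psmd9, Psmd12 and Psme4. The results return to these genes. Psmb5, Psmb6 and Psmd9 had log2 fold changes of ethanol over control of 0.16, 0.17 and 0.40. In Psmc6, Psmd12 and Psme4, whose promoters are not printed, these were 0.16, 0.12 and 0.05. The median was 0.16 over the 6 genes and 0.11 over the 29 kept genes with a promoter but no core. The difference between these medians was not tested. The promoters of the catalytic subunits Psmb5 and Psmb6 and the chaperone Psmd9 are printed 5′ to 3′ with the core in capitals.
Psmb5 (chr14:54617946-54618245, minus strand): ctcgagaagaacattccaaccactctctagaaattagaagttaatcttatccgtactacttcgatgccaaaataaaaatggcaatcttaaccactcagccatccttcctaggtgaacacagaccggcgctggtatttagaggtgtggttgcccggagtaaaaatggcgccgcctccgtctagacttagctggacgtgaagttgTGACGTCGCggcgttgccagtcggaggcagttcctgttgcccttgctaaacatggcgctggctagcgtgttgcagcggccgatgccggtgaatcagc
Psmb6 (chr11:70525107-70525406, plus strand): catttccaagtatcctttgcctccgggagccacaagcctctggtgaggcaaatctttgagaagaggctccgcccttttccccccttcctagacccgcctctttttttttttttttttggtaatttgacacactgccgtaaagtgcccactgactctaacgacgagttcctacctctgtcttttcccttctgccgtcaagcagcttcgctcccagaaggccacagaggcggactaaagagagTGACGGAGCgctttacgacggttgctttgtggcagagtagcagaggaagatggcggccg
Psmd9 (chr5:123227940-123228239, plus strand): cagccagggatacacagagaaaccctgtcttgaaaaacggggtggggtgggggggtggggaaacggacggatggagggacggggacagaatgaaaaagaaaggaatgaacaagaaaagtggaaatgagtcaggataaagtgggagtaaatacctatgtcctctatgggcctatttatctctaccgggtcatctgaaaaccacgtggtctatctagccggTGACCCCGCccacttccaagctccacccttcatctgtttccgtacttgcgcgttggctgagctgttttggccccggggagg
The core begins 47 bases before the start in Psmb5, 9 bases before it in Psmb6 and 31 bases before it in Psmd9. The CCAAT box, searched on both strands in the same windows, was in 13 of the 38 promoters, or 34.2%, against 37.4% of all promoters. A match of letters is a description of the window and does not show a bound factor.

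The proteasome genes sat slightly higher in ethanol livers across most of the complex, by amounts that no single gene carried past the test. Of the 44 genes, 43 had a probe well above background on at least 4 of 5 arrays of a group. Psmb11, the thymus subunit, was not well above background on any array. Among the 43 genes, 39 (90.7%) had a positive log2 fold change of ethanol over control, where 61.2% of all 31110 kept probes did. The median log2 fold change of the 43 genes was 0.12, a fold of 1.08, and that of all kept probes was 0.05. Single genes ran from -0.12 for Psmf1 to 0.46 for Psme3. None of the 43 passed an adjusted p of 0.05 in limma over all kept probes. Over the whole array 0.00643% of probes passed as higher and 0.00321% as lower, or 0.00964% in all. The lowest adjusted p among the 43 was 0.233, for Psmd9.

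At an unadjusted p under 0.05, 5 genes (11.6%) were higher and 0 were lower, against 8.56% and 4.28% of all kept probes. Those 5 were Psmd9, Psmc1, Psmb7, Psmd13 and Psmb4. The 11.6% is near the background share, and this count changed with the setting, as given in the closing sections. In 4 genes (9.3%) every ethanol liver was above every control liver: Psmd9, Psmc1, Psmb4 and Psma2. That holds for 1.8% of all kept probes, and the reverse for 0.955%. Of the brightest quintile of probes, 3.78% had ethanol above control without overlap, and this quintile holds 35 of the 43 genes. Over the array the share of positive fold changes was highest in the brightest quintile, at 70.9%, but did not follow signal evenly: from the dimmest quintile up it was 63.8%, 59.0%, 55.3% and 56.8% in the other quintiles. The median log2 fold change was 0.12, 0.06, 0.02, 0.02 and 0.07 from the dimmest quintile to the brightest. The part of signal strength in the proteasome values was not tested.

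**Figure D1:**
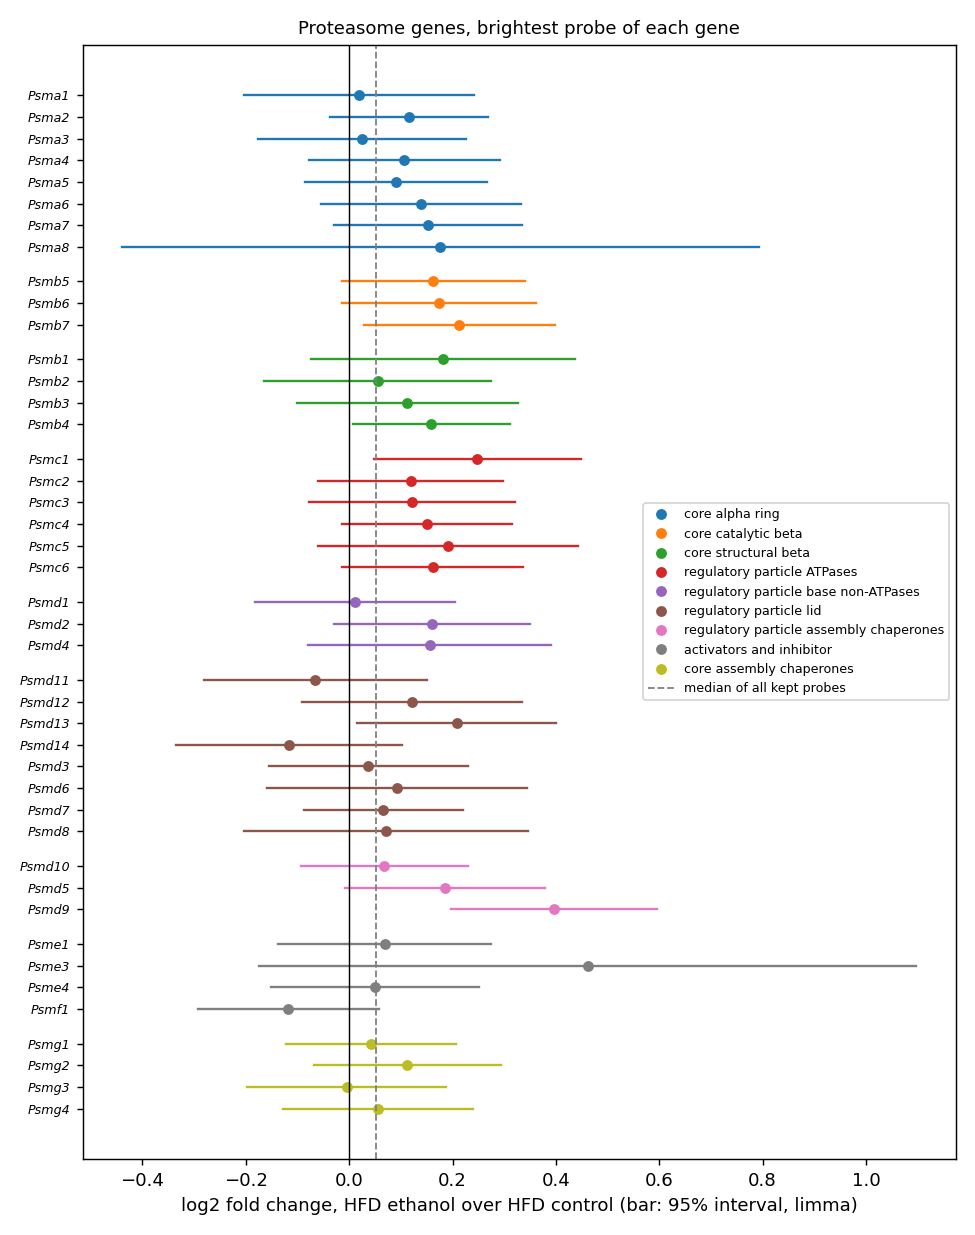
Log2 fold change of HFD ethanol over HFD control for the 43 proteasome genes, ordered by role; points are the estimates, bars the 95% intervals and the dashed line the median of all kept probes (0.05). Of the 43 points, 39 lie right of 0, while 38 of the intervals include 0.

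The intervals limit how large a change could be. Of the 43 genes, 38 had a 95% interval that included 0, and 40 had an upper limit under a fold of 1.5. In absolute size, 16 genes lay under 0.1, 22 between 0.1 and 0.2 and 5 at 0.2 or above. Of the 22, Psmd14 and Psmf1 were on the lower side and the other 20 on the higher. The spread within a group was small: the median within-group SD was 0.114 over the proteasome genes and 0.232 over all kept probes. These SDs are not matched for signal, and 35 of the 43 genes lie in the brightest quintile.

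In the alpha ring all 8 genes had a positive log2 fold change, with a median of 0.11 and a range of 0.02 to 0.18, though only 5 of 8 under quantile normalization. None of the 8 reached an unadjusted p of 0.05. Levels here and below are log2 of the processed signal over the array's 75th percentile, and they can be set against each other only within a gene. Psma2 had 5.58, 5.60, 5.55, 5.67 and 5.55 in ethanol livers 1 to 5, against 5.37, 5.52, 5.53, 5.51 and 5.43 in control livers 1 to 5. Psma2 (NM_008944) is one of the ring subunits, and its groups did not overlap, with a log2 fold change of 0.12 ± 0.07 (SE, n = 5 each, limma, adjusted p = 0.483). Psma7 had 5.53, 5.59, 5.54, 5.58 and 5.45 in ethanol livers 1 to 5, against 5.21, 5.55, 5.47, 5.36 and 5.34 in control livers 1 to 5. Psma7 (NM_011969), a ring subunit, had a log2 fold change of 0.15 ± 0.08 (SE, n = 5 each, limma, adjusted p = 0.448). Control livers 2 and 3 lay inside the ethanol range. Psma8, which replaces Psma7 in the testis, had the widest error of the ring, at 0.18 ± 0.28 (SE). Its brightest probe was well above background on all 10 arrays, and its other probe on 1 ethanol and 2 control arrays. The other 5 ring genes ran from 0.02 in Psma1 to 0.14 in Psma6.

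All 3 catalytic subunits, which carry the active sites, averaged higher in ethanol livers, by 0.16 to 0.21 on the log2 scale. The sign was the same under quantile normalization, but within slide 3 Psmb6 was at -0.04. The mean of the 3 was 4.77 to 4.86 in the 5 ethanol livers and 4.54 to 4.69 in the 5 control livers, so the groups did not overlap on this mean. How often means of 3 other probes on the array separate in this way was not counted. Psmb5 had 4.60, 4.32, 4.40, 4.45 and 4.56 in ethanol livers 1 to 5, against 4.24, 4.38, 4.32, 4.35 and 4.22 in control livers 1 to 5. Psmb5 (NM_011186), the subunit that cuts after hydrophobic residues and the target of bortezomib, averaged 4.47 ± 0.11 in ethanol livers and 4.30 ± 0.069 in control livers (SD, n = 5 each). That was a log2 fold change of 0.16 ± 0.08 (SE, n = 5 each, limma, adjusted p = 0.412). In Psmb5 ethanol liver 2 lay below control livers 2, 3 and 4, and the other ethanol livers lay above all controls. Psmb6 had 6.42, 6.48, 6.44, 6.57 and 6.38 in ethanol livers 1 to 5, against 6.13, 6.47, 6.32, 6.32 and 6.18 in control livers 1 to 5. Psmb6 (NM_008946) cuts after acidic residues and had a log2 fold change of 0.17 ± 0.08 (SE, n = 5 each, limma, adjusted p = 0.411). Control liver 2 was the one that reached the ethanol range. Psmb7 had 3.44, 3.62, 3.59, 3.57 and 3.38 in ethanol livers 1 to 5, against 3.25, 3.16, 3.40, 3.40 and 3.32 in control livers 1 to 5. Psmb7 (NM_011187) cuts after basic residues and had a log2 fold change of 0.21 ± 0.08 (SE, n = 5 each, limma, adjusted p = 0.353), with a 95% interval of 0.03 to 0.40. Ethanol liver 5 lay below control livers 3 and 4, and the rest of the ethanol group lay above every control. So the adjusted test called none of the 3. Each was above the control mean in 5 of 5 ethanol livers, as was the case for 18 of the 43 proteasome genes. The share of all kept probes for which this holds was not counted.

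The 4 beta subunits without an active site also had positive fold changes, with a median of 0.14, and 0.04 with the same signs under quantile normalization. Psmb4 had 5.95, 5.99, 5.96, 5.95 and 5.98 in ethanol livers 1 to 5, against 5.68, 5.85, 5.88, 5.87 and 5.77 in control livers 1 to 5. Psmb4 (NM_008945), a beta subunit known to help the core come together, averaged 5.97 ± 0.018 in ethanol livers and 5.81 ± 0.083 in control livers (SD, n = 5 each). Its ethanol livers lay within a narrow band above all controls, with a log2 fold change of 0.16 ± 0.07 (SE, n = 5 each, limma, adjusted p = 0.374). Its second kept probe also gave 0.16. Psmb1 had 3.75, 4.08, 4.06, 3.96 and 3.64 in ethanol livers 1 to 5, against 3.62, 3.50, 3.90, 3.80 and 3.77 in control livers 1 to 5. Psmb1 (NM_011185), another inner ring subunit, had a log2 fold change of 0.18 ± 0.12 (SE, n = 5 each, limma, adjusted p = 0.511) and overlapping groups. Psmb2 stood at 0.06 ± 0.10 and Psmb3 at 0.11 ± 0.10 (SE).

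**Figure D2:**
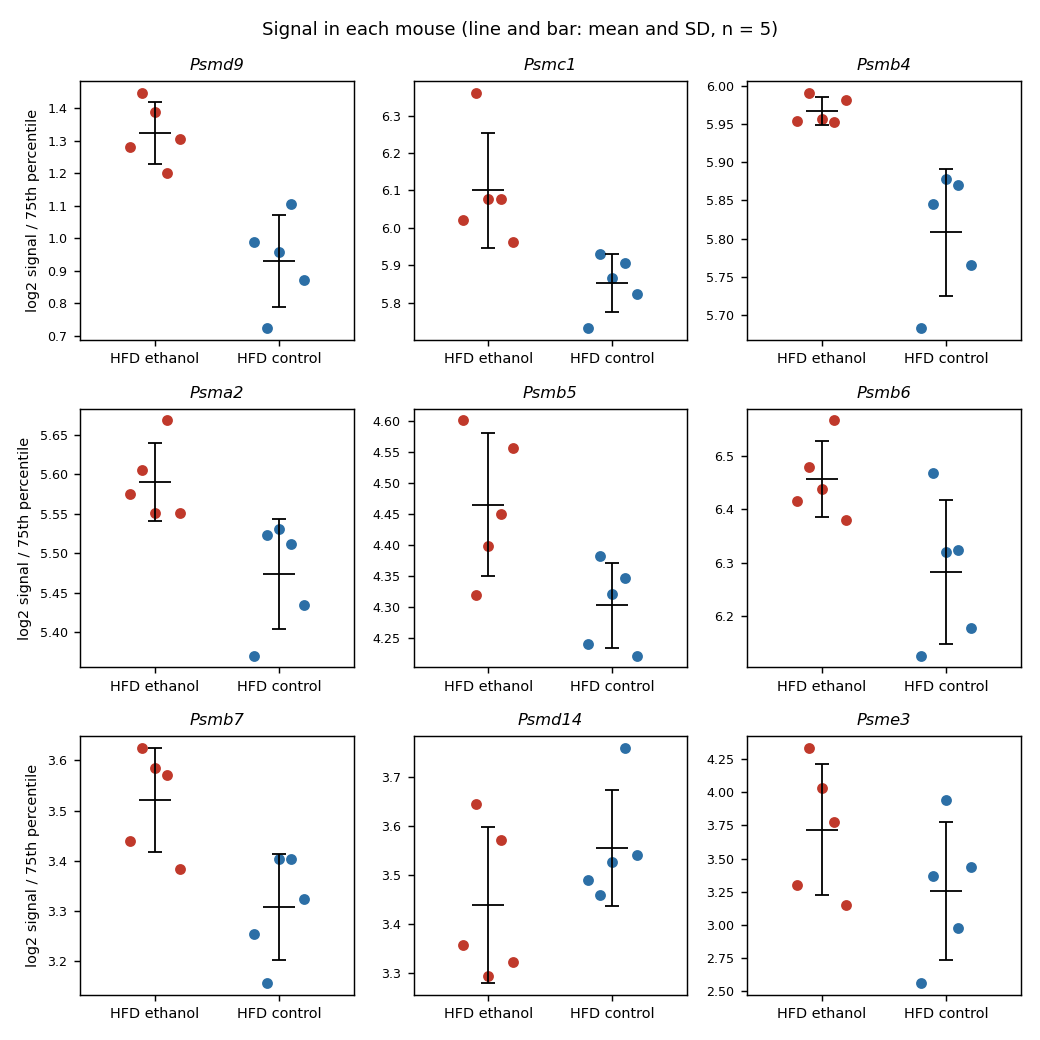
Log2 signal over the 75th percentile in each mouse for 9 proteasome genes, HFD ethanol left of HFD control; points are mice and bars the mean and SD (n = 5 each), and each panel has its own axis, which does not start at 0. The groups do not overlap for Psmd9, Psmc1, Psmb4 and Psma2, and overlap for the other 5 genes.

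In the regulatory particle all 6 Psmc genes, the ATPases, had positive fold changes, from 0.12 to 0.25, with a median of 0.16. Of all kept probes 61.2% had positive ones. Under quantile normalization 5 of the 6 were positive, with a median of 0.10. Within slide 3 Psmc3 and Psmc5 were at -0.07 and -0.09. Psmc1 had 6.02, 6.36, 6.08, 6.08 and 5.96 in ethanol livers 1 to 5, against 5.73, 5.93, 5.87, 5.91 and 5.82 in control livers 1 to 5. Psmc1 (NM_008947), an ATPase whose tail is known to open the gate of the core, averaged 6.10 ± 0.15 in ethanol livers and 5.85 ± 0.078 in control livers (SD, n = 5 each). The groups did not overlap, ethanol liver 2 was the highest of all, and the fit gave a log2 fold change of 0.25 ± 0.09 (SE, n = 5 each, limma, adjusted p = 0.337). Psmc4 had 3.61, 3.74, 3.50, 3.60 and 3.61 in ethanol livers 1 to 5, against 3.40, 3.49, 3.40, 3.56 and 3.46 in control livers 1 to 5. Psmc4 (NM_011874), an ATPase of the same ring, had a log2 fold change of 0.15 ± 0.07 (SE, n = 5 each, limma, adjusted p = 0.411), and only control liver 4 lay inside the ethanol range. Its second kept probe gave 0.27. Psmc2, Psmc3 and Psmc6 stood at 0.12 ± 0.08, 0.12 ± 0.09 and 0.16 ± 0.08 (SE). Psmc5 stood at 0.19 ± 0.11 with ethanol liver 3 left out of its fit, since that spot was marked as an outlier by the scanner software.

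The base also holds Psmd1, Psmd2 and Psmd4, which bind ubiquitin chains and their carriers or scaffold them. Psmd2 had 4.35, 4.25, 4.14, 4.27 and 4.26 in ethanol livers 1 to 5, against 3.96, 4.19, 4.24, 4.15 and 3.94 in control livers 1 to 5. Psmd2 (NM_134101), the docking subunit for shuttle proteins, had a log2 fold change of 0.16 ± 0.09 (SE, n = 5 each, limma, adjusted p = 0.445), but its second kept probe gave -0.13, so its direction is uncertain. Psmd4 had 5.83, 5.76, 5.57, 5.66 and 5.82 in ethanol livers 1 to 5, against 5.52, 5.85, 5.36, 5.67 and 5.46 in control livers 1 to 5. Psmd4 (NM_001282017), a ubiquitin receptor, had a log2 fold change of 0.16 ± 0.11 (SE, n = 5 each, limma, adjusted p = 0.537). Control liver 2 was the highest of the 10 in Psmd4, and the ethanol values lay inside the control range. Psmd1, the base scaffold, stood at 0.01 ± 0.09 (SE) and was positive in 18 of 28 settings. It was negative under each of the other scalings, with normexp, with slide as a fixed block and within slide 3.

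In the lid 6 of 8 genes had positive fold changes, with a median of 0.07, and 5 of 8 under quantile normalization. Psmd13 had 4.98, 4.76, 4.77, 4.90 and 4.99 in ethanol livers 1 to 5, against 4.60, 4.63, 4.85, 4.72 and 4.56 in control livers 1 to 5. Psmd13 (NM_011875), a lid scaffold subunit, had a log2 fold change of 0.21 ± 0.09 (SE, n = 5 each, limma, adjusted p = 0.365), and 0.21 on both of its kept probes. Control liver 3 overlapped the ethanol group. Psmd12 had 4.73, 5.13, 5.00, 4.95 and 4.72 in ethanol livers 1 to 5, against 4.66, 4.80, 4.83, 4.83 and 4.81 in control livers 1 to 5. Psmd12 (NM_025894), another lid scaffold subunit, had a log2 fold change of 0.12 ± 0.10 (SE, n = 5 each, limma, adjusted p = 0.595), with ethanol livers 1 and 5 below 4 of the 5 controls. Psmd14 had 3.36, 3.65, 3.29, 3.57 and 3.32 in ethanol livers 1 to 5, against 3.49, 3.46, 3.53, 3.76 and 3.54 in control livers 1 to 5. Psmd14 (NM_021526), the metalloprotease that strips the ubiquitin chain from the substrate, had a log2 fold change of -0.12 ± 0.10 (SE, n = 5 each, limma, adjusted p = 0.624). Its sign opposed most of the lid, and ethanol livers 2 and 4 lay within the control range. Psmd11, a lid subunit, stood at -0.07 ± 0.10, Psmd6 at 0.09 ± 0.11, Psmd7 at 0.07 ± 0.07 and Psmd8 at 0.07 ± 0.12 (SE). Psmd3 gave 0.04 on its brightest probe and 0.24 on the other.

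The lowest p in the family belonged to an assembly chaperone and not to a subunit. The 3 genes that help the base assemble, Psmd5, Psmd9 and Psmd10, had a mean of 1.36 to 1.44 in ethanol livers and 1.02 to 1.35 in control livers. Psmd9 had 1.28, 1.45, 1.39, 1.20 and 1.31 in ethanol livers 1 to 5, against 0.99, 0.72, 0.96, 1.10 and 0.87 in control livers 1 to 5. Psmd9 (NM_026000), which holds a pair of ATPases during assembly, averaged 1.33 ± 0.096 in ethanol livers and 0.93 ± 0.14 in control livers (SD, n = 5 each). The lowest ethanol liver was above the highest control, the fold was 1.32, and the fit gave a log2 fold change of 0.40 ± 0.09 (SE, n = 5 each, limma, adjusted p = 0.233), with a 95% interval of 0.20 to 0.60. This value stayed between 0.21 (within slide 1) and 0.63 (within slide 3) over all settings tried, with adjusted p from 0.105 to 0.805. Psmd5 had 0.93, 1.03, 1.09, 1.07 and 1.00 in ethanol livers 1 to 5, against 0.84, 0.65, 0.93, 1.03 and 0.75 in control livers 1 to 5. Psmd5 (NM_080554), which binds another ATPase pair, had a log2 fold change of 0.19 ± 0.09 (SE, n = 5 each, limma, adjusted p = 0.398), and control liver 4 lay inside the ethanol range. Psmd10, the third of these chaperones, stood at 0.07 ± 0.07 (SE).

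The activators and the inhibitor did not share a direction, and no member reached an unadjusted p of 0.05. Of the 4 measured, 3 had positive fold changes, and 1 did under quantile normalization, where Psme1 and Psme4 turned to -0.01 and -0.02. Psme3 had 3.30, 4.33, 4.03, 3.77 and 3.15 in ethanol livers 1 to 5, against 2.56, 3.37, 3.94, 2.98 and 3.43 in control livers 1 to 5. Psme3 (NM_011192), the nuclear activator subunit, had the largest estimate of the family and the largest spread, averaging 3.72 ± 0.49 in ethanol livers and 3.26 ± 0.52 in control livers (SD, n = 5 each). It overlapped widely and had a log2 fold change of 0.46 ± 0.29 (SE, n = 5 each, limma, adjusted p = 0.5). Its estimate was 0.04 with column position on the slide as a covariate, 0.15 without the column 1 arrays (ethanol livers 2 and 3), 0.29 without control liver 1 and 0.31 without ethanol liver 2. Psme1 had 4.61, 4.33, 4.25, 4.51 and 4.64 in ethanol livers 1 to 5, against 4.41, 4.48, 4.36, 4.34 and 4.40 in control livers 1 to 5. Psme1 (NM_011189), an activator subunit known to be induced by interferon gamma, had a log2 fold change of 0.07 ± 0.09 (SE, n = 5 each, limma, adjusted p = 0.775), and the ethanol range enclosed that of the controls. Psme4 had 4.01, 4.11, 4.21, 4.06 and 4.16 in ethanol livers 1 to 5, against 3.91, 4.08, 4.26, 4.14 and 3.91 in control livers 1 to 5. Psme4 (NM_134013), a nuclear activator that promotes degradation without ubiquitin, had a log2 fold change of 0.05 ± 0.09 (SE, n = 5 each, limma, adjusted p = 0.837), with a second probe at -0.07. Psmf1 had 1.68, 1.62, 1.42, 1.64 and 1.55 in ethanol livers 1 to 5, against 1.66, 1.84, 1.65, 1.66 and 1.69 in control livers 1 to 5. Psmf1 (NM_212446), an inhibitor of the core in vitro, had a log2 fold change of -0.12 ± 0.08 (SE, n = 5 each, limma, adjusted p = 0.533). No ethanol liver was above the control mean of Psmf1, and its second kept probe gave -0.08.

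The chaperones that build the core barrel showed little: 3 of 4 had positive fold changes, with a median of 0.05, and 2 of 4 under quantile normalization. Psmg2 had 1.96, 2.20, 2.19, 2.19 and 1.97 in ethanol livers 1 to 5, against 1.96, 1.89, 2.04, 1.99 and 2.05 in control livers 1 to 5. Psmg2 (NM_134138), a chaperone of the alpha ring, had a log2 fold change of 0.11 ± 0.08 (SE, n = 5 each, limma, adjusted p = 0.563), with ethanol livers 2, 3 and 4 above every control. Psmg4 had 0.86, 0.63, 0.72, 0.83 and 0.74 in ethanol livers 1 to 5, against 0.57, 0.89, 0.65, 0.71 and 0.69 in control livers 1 to 5. Psmg4 (NM_001101430), which acts with Psmg3 on the same ring, had a log2 fold change of 0.06 ± 0.08 (SE, n = 5 each, limma, adjusted p = 0.795), and control liver 2 was the highest of all. Psmg1 stood at 0.04 ± 0.07 and Psmg3 at -0.01 ± 0.09 (SE).

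Several probes of a gene gave similar but not equal answers. Of 18 genes with at least 2 kept probes, 4 had probes of opposite sign: Psma3, Psmd1, Psmd2 and Psme4. The median spread between probes of a gene was 0.066, and the widest was 0.285, in Psmd2.

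The shift did not come evenly from the 10 mice. The 43 genes were set against their own mean over the 10 livers, and the median deviation was 0.03, 0.11, 0.02, 0.10 and -0.01 in ethanol livers 1 to 5. It was -0.16, -0.0087, -0.01, -0.0035 and -0.08 in control livers 1 to 5. Control liver 1 was the lowest of the 10 in 22 genes, and ethanol liver 2 the highest in 20. The median deviation of all kept probes was 0.04, 0.06, 0.03, 0.02 and 0.02 in ethanol livers 1 to 5. It was -0.05, 0.0045, -0.01, -0.03 and -0.02 in control livers 1 to 5. In ethanol liver 2 and control liver 1 this was in the same direction as the proteasome genes and by less. The proteasome median lay above that of all kept probes in ethanol livers 2 and 4, and below it in ethanol livers 1, 3 and 5. Without control liver 1 the median over the 43 genes was 0.09, 37 were higher, and 2 (4.65%) reached an unadjusted p of 0.05 as higher, against 5.40% of all kept probes. Without ethanol liver 2 the median was also 0.09 and 36 were higher.

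**Figure D3:**
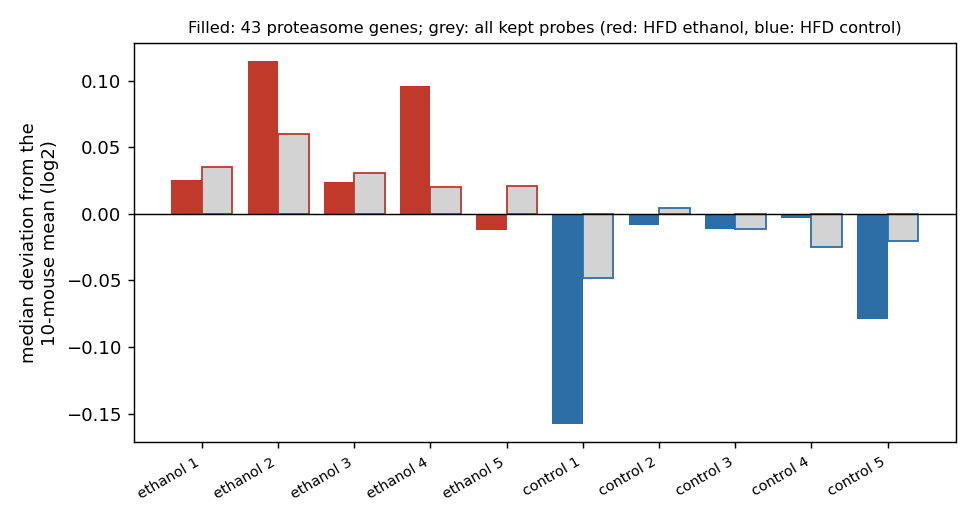
Median deviation from the 10-mouse mean, in log2 units, in each liver, HFD ethanol left of HFD control; filled bars are the 43 proteasome genes and grey bars all kept probes. Control 1 stands lowest at -0.16 and ethanol 2 highest at 0.11, and ethanol 5 lies below 0.

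The size of the shift depended on scaling. Quantile normalization forces all arrays to 1 signal distribution. Under it 30 of the 43 genes had positive fold changes and 13 negative ones, with a median of 0.03 against 0.0024 for all kept probes, of which 50.5% were higher. Scaling to the array median gave 38 genes higher and a median of 0.10, and the authors' deposited values gave 38 and 0.10. Under each of these scalings the median of the proteasome genes lay above that of all probes.

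The arrays lay on 3 slides, and slide was only partly balanced. Slide 1 held 1 ethanol and 2 control arrays, slide 2 held 2 control arrays, and slide 3 held 4 ethanol arrays and 1 control array. With slide as a fixed block 35 of 43 genes had positive fold changes and the median was 0.09, against 0.04 for all kept probes. Within slide 1 these were 37 genes and 0.14, and within slide 3, 27 genes and 0.06. Within slide 3 the other 16 genes had negative values, down to -0.51 in Psma8, and 12 of these 16 had positive ones over all arrays. The 12 were Psma7, Psma8, Psmb3, Psmb6, Psmc3, Psmc5, Psmd1, Psmd3, Psmd4, Psme1, Psmg1 and Psmg4. With column position on the slide in the model they were 36 genes and 0.07. Control livers 1, 4 and 5 all lay in column 4 and ethanol livers 2 and 3 in column 1, so column and group cannot be fully told apart.

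**Figure D4:**
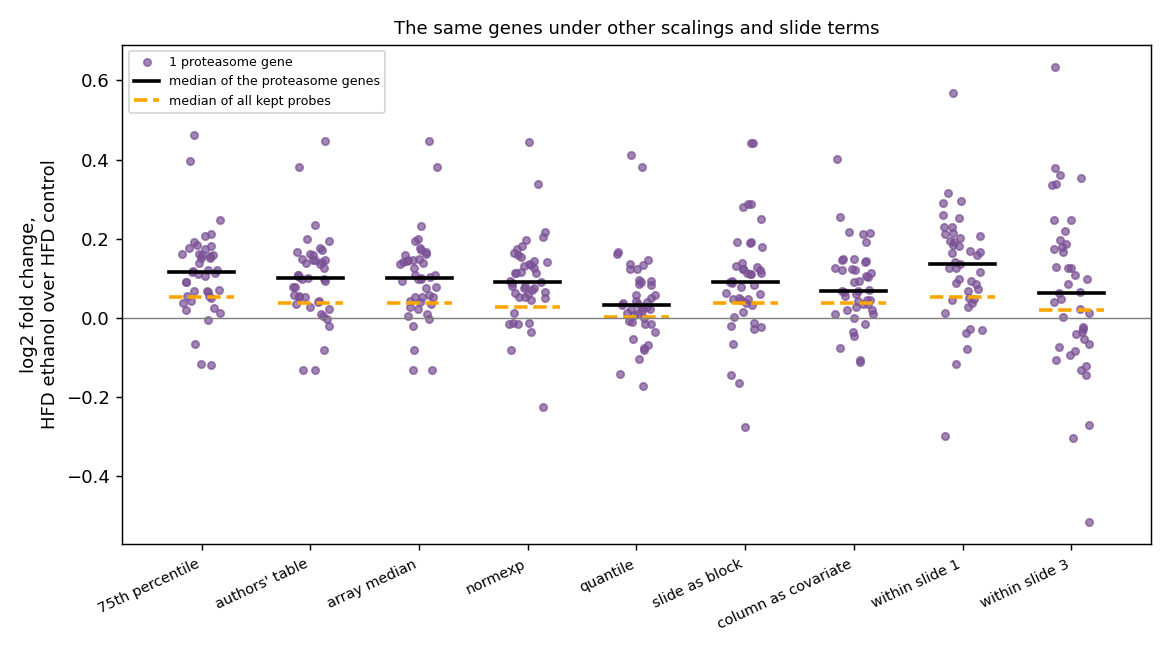
Log2 fold change of HFD ethanol over HFD control for each of the 43 proteasome genes (points) under 9 settings; black lines are the medians of the proteasome genes and dashed lines those of all kept probes. The median runs from 0.03 under quantile normalization to 0.14 within slide 1 and lies above that of all probes in each.

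The immunoproteasome subunits Psmb8, Psmb9 and Psmb10, which take the place of Psmb5, Psmb6 and Psmb7 in immune or interferon-treated cells, had log2 fold changes of -0.11 ± 0.13, -0.08 ± 0.13 and -0.11 ± 0.10 (SE, n = 5 each), and none reached an unadjusted p of 0.05. The difference between these and the constitutive subunits was not tested. Of 20 kept interferon-responsive genes, 19 had negative fold changes and 4 reached an unadjusted p of 0.05 as lower, with a median of -0.29. Over all kept probes 61.2% had positive fold changes and 4.28% reached that p as lower. The mean of the 20 genes was 1.33 to 1.66 in ethanol livers and 1.59 to 1.81 in control livers. Xaf1, an interferon-induced gene, stood at -0.42 ± 0.08 (SE, adjusted p = 0.2), and none of the list passed the adjusted test.

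Genes that work with the proteasome but fall outside its naming were mixed. Of 11 kept partners, 8 had positive fold changes, where 61.2% of all kept probes did. Of the 11, 0 reached an unadjusted p of 0.05. Their median was 0.06, against 0.05 for all kept probes. Pomp, which matures the core, stood at 0.14 ± 0.08, Txnl1 (a thioredoxin bound to the cap) at 0.14 ± 0.09 and Zfand2a (a stress-induced zinc finger protein) at -0.14 ± 0.10 (SE). Of 12 genes of the NRF1 axis, 6 had positive and 6 negative fold changes, with a median of -0.01. Nfe2l1 itself stood at 0.10 ± 0.11 and Nploc4, a cofactor of the VCP segregase, at 0.18 ± 0.09 (SE).

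Of 8 shuttle receptor genes, which carry ubiquitinated proteins to the proteasome, 5 had positive fold changes, where 61.2% of all kept probes did. Ubqln4 stood at 0.32 ± 0.13 (SE). No gene of the partner, NRF1 and shuttle lists passed the adjusted test.

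The tissue's own markers were present, and other cell types' markers were not constant. In bulk liver RNA, fewer cells of a type and less RNA per cell cannot be told apart. All 9 hepatocyte markers with a named probe were kept, with means of 7.31 to 7.88 in ethanol livers and 7.55 to 7.87 in control livers, and a median log2 fold change of -0.07. Of 11 stellate cell markers 10 had negative fold changes and 7 reached an unadjusted p of 0.05 as lower. Of all kept probes 4.28% did so. The mean of the 11 markers was 0.44 to 1.29 in ethanol livers and 1.31 to 1.69 in control livers, without overlap. The collagen genes Col1a1 and Col1a2 stood at -1.90 ± 0.44 and -1.43 ± 0.32 (SE). Macrophage markers ran from 1.20 to 2.28 in ethanol livers and 1.28 to 2.24 in control livers, with 5 of 12 positive. Endothelial markers ran from 0.59 to 0.89 in ethanol livers and 0.59 to 0.95 in control livers, with 3 of 10 positive. Lymphocyte markers ran from -1.67 to -1.05 in ethanol livers and -1.47 to -1.09 in control livers, with 3 of 10 kept genes positive and Cd8a and Cd79a not well above background. At an unadjusted p of 0.05, 1 hepatocyte and 1 lymphocyte marker were lower, and 1 macrophage and 1 endothelial marker were higher. Of all kept probes 4.28% were lower and 8.56% higher at that p. The part of the cell type markers in the proteasome values was not tested.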

How the data were processed

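Liver RNA of 10 mice was measured on 1-colour Agilent arrays, 1 mouse per array. Per the file headers, Feature Extraction 10.7.3.1 made the deposited signal intensities, which are background-subtracted and not normalized between arrays. The authors also deposited a table of log2 values. On bright probes it matches the log2 of the scaled intensities, array by array (r = 1 over 13212 probes). Its centring is not known, and its column medians were 0.02, -0.0037, -0.01, -0.0020 and 0.05 in ethanol livers 1 to 5 and -0.12, 0.08, 0.02, -0.07 and -0.07 in control livers 1 to 5.

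Here the processed intensity was divided by each array's 75th percentile (295.6 to 342.7 signal units in ethanol arrays, 277.0 to 383.3 in control arrays), floored at 4 units and taken to log2. Spots marked as controls or outliers were removed and the rest averaged per probe. Probes well above background on at least 4 of 5 arrays of a group were kept. Of all spots, 57.2% to 58.9% were well above background in ethanol arrays and 55.5% to 59.1% in control arrays, and 0 were saturated. limma 3.58.1 (R 4.3.3; lmFit, eBayes) compared the groups over 31110 probes with Benjamini-Hochberg adjustment, after it was tested on simulated data. A gene is read from its brightest kept probe. Symbols come from each accession in RefSeq (GRCm38.p6, used for names and promoters only).

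No label says more of the replicates than 1 mouse each, and none states a pairing by number. No 2 arrays were alike (smallest root mean square log2 difference 0.335). The genes with values for every mouse are, in each role, the pair with the smallest p, with Psmb5, Psmb6, Psmb7, Psmd14 and the measured Psme and Psmf genes added. In the other lists the genes with the smallest p are named, and Nfe2l1, which is not among these, was added. Members and lists were chosen with earlier results of these data known, and some genes are named after their values were seen. The results of 1 further gene list are not reported here. The alternatives were other scalings, background correction, filters, the trend and robust options of eBayes, slide and column terms, a replicate block and each array left out.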

Additional observations from a re-analysis of the deposited data

Results flagged for a closer look

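Among 44 groups of 5 livers tested, 3 held a liver far from the other 4, and chance flags about 1 in 20. The ratio of its gap to the group's range was above Dixon's critical value of 0.71 for 5 samples in each. In Psmd12, control liver 1 stood at 4.66 and the other controls at 4.80 to 4.83 (ratio 0.825). In Psmd14, control liver 4 stood at 3.76 and the others at 3.46 to 3.54 (ratio 0.731). In Psmf1, control liver 2 stood at 1.84 and the others at 1.65 to 1.69 (ratio 0.758).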

How the results depend on the processing

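None of the 43 proteasome genes passed the adjusted threshold under any setting tried, the lowest adjusted p being 0.105 (Psmd9, without control liver 2). Of 106 alternative values of the counts and the median 90 kept their place, but the rule for this was wide. It took the 27 genes higher within slide 3, against 39, as kept, and also the median of 0.06 there. Of the 106, 26 were the count of proteasome genes called, which was 0 in each. Of 594 values for the 22 genes with values per mouse 582 kept their sign. The median over the proteasome genes was 0.0327 under quantile normalization, against 0.12. Probes called over the whole array, 3 as reported, were 1 with median scaling and with no filter on dim probes, 0 with slide as a fixed block, within slide 1, within slide 3, with the column covariate and with the replicate block, and 0 to 6 with an array left out. Leaving out an array gave 36 to 40 genes higher, medians of 0.09 to 0.13 and 0 genes called. Over all 43 genes, 12 turned negative within slide 3, 9 under quantile normalization and 5 with slide as a fixed block. Of the 22, the sign turned within slide 3 for Psma7 (-0.0223), Psmb6 (-0.0395), Psmd4 (-0.11), Psme1 (-0.0277) and Psmg4 (-0.14), and with slide as a fixed block for Psmd4 (-0.0132) and Psmg4 (-0.0215). Among the 22 it also turned under quantile normalization for Psme1 (-0.0102) and Psme4 (-0.0153), and for Psme4 with normexp (-0.0161), with the mean of its probes (-0.0085) and with the column covariate (-0.0444). The cause was not tested. In deviations from the group means, same-numbered livers correlated at 0.20, 0.05, 0.26, 0.05 and -0.17. The same-numbered control was the most correlated control for ethanol livers 1 and 3. For no control liver was the same-numbered ethanol liver the most correlated. No label states a pairing, and these few values cannot exclude one. The replicate block gave 39 genes higher, a median of 0.12 and 2 genes (4.65%, against 8.94% of all kept probes) higher at an unadjusted p of 0.05, against 5 without it. At that p, 13 of 44 genes (29.5%, against 6.35% of all probes) were higher with no filter on dim probes. The 6.35% covers all 56605 probes, dim ones included, while most proteasome genes are bright, so these shares are not like for like. With the trend and robust options of eBayes 10 genes were higher at that p (23.3%, against 9.04%). Quantile normalization gave 1 (2.33%, against 5.33%), and the column covariate 1 (2.33%, against 3.40%). Within slide 1 and slide 3 a group has 1 array, assumed to vary like the other.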

Other observations

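Psme2, the partner of Psme1 in its activator ring, had no probe named here. Its near-identical copy Psme2b, which falls outside the name rule, stood at 0.02 ± 0.09 (SE, n = 5 each) on its brightest probe and at 0.01 on its other probe. Whether the probes named Psme2b also read Psme2 was not tested.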
